A study of Mus musculus with 18 samples.

Results

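The comparison described here set embryoid bodies (EBs) of the TKO embryonic stem cell (ESC) line against EBs of the *Dnmt1-/-* ESC line, both at day 16 of differentiation, over all 35512 probe sets of the Affymetrix Mouse Gene 1.0 ST array. Each side had 2 arrays, so 4 of the 18 arrays of the series were compared, and no probe set was left out. TKO cells carry *dnmt1-/-*, *dnmt3a-/-* and *dnmt3b-/-* together, and *Dnmt1-/-* cells carry *dnmt1-/-* alone, so the loss of *Dnmt1* was common to both sides and they differed by the loss of *Dnmt3a* and *Dnmt3b*. Both lines and the wt line, whose EBs of the same day are given for orientation, are of the J1 (129Sv/Jae) background. EBs were grown by the hanging drop method and sampled at day 4 and day 16, and undifferentiated ESCs were sampled at day 0, with 2 arrays for each line and day. The 2 arrays of a group are labelled as biological replicates. Each genotype was represented by ESCs described as 1 line, so the genotype and other properties of that line cannot be told apart. An EB is a mixture of cell types, and in such bulk samples fewer cells of a type and less RNA per cell cannot be told apart.

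Dnmt1 copies the methylation pattern of the old DNA strand onto the newly made one, while Dnmt3a and Dnmt3b set methylation on unmethylated DNA and are highly active as ESCs leave the naive state. In *Dnmt1-/-* cells the Dnmt3 enzymes remain and keep a low level of methylation, whereas TKO cells have no DNA methyltransferase activity. During EB culture wt ESCs switch off the pluripotency network and form cells of extraembryonic endoderm, heart muscle, connective tissue and other early lineages.

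Each value is a log2 signal per probe set, so a difference of 1 is a factor of 2. Signals ran from 1.21 to 14.0, array medians lay between 5.77 and 5.90, and the arrays of a group correlated across probe sets with r of 0.981 to 0.991. The 2 TKO arrays of day 16 had the lowest of these values, with r = 0.981, and the 2 *Dnmt1-/-* arrays had r = 0.987. As a distance over all probe sets (root of the summed squared differences), a TKO array and a *Dnmt1-/-* array lay 77.4 to 109.7 apart in the 4 pairs of day 16, while the 2 TKO arrays lay 85.5 apart and the 2 *Dnmt1-/-* arrays 72.8 apart. Distances within and between the genotypes thus overlapped. Between the genotypes they were 65.2 to 89.0 at day 4 and 62.8 to 78.7 at day 0.

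A probe set was called when limma, fitted to all 18 arrays, gave a fold change of at least 2 and a Benjamini-Hochberg adjusted p under 0.05. At day 16, 46 probe sets (0.13%) were higher and 334 (0.941%) lower in TKO than in *Dnmt1-/-* EBs, 380 in all or 1.07% of those tested. Without adjustment, 4907 probe sets had p under 0.05, and 810 changed at least 2-fold at any p. With 1 probe set for each gene that has its own symbol, 33 genes were higher (0.166% of 19938) and 291 lower (1.46%), or 324 in all (1.63%). The median log2 fold change was 0.06 over all genes and the median SE of a probe set 0.20. Among the called genes, the falls were the larger changes. The 33 higher genes had log2 fold changes of 1.03 to 1.78 and none of them differed by 4-fold, whereas the 291 lower genes had -4.76 to -1.01 and 56 of them differed by at least 4-fold. In all 324 called genes the arrays of the 2 genotypes did not overlap, as was so for 46.5% of all genes and 41.2% of all probe sets.

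These calls rest on a spread estimated over all 9 groups. When only the 4 compared arrays were fitted, limma called 1 probe set, that of *Igf2* (3397 at unadjusted p under 0.05), and with the 6 arrays of day 16 it called 1 as well. Fitting only the 12 EB arrays called 222, of which 216 were among the 380. Leaving out 1 of the 4 arrays gave 101 calls without *Dnmt1-/-* replicate 1, 105 without TKO replicate 2, 311 without *Dnmt1-/-* replicate 2 and 407 without TKO replicate 1. The lone array that remained in a group was then assumed to vary like the other groups. Of the 324 genes, 67 were called whichever of the 4 arrays was left out, 66 of them lower and 1 higher, *Dmrt1*.

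**Figure D1:**
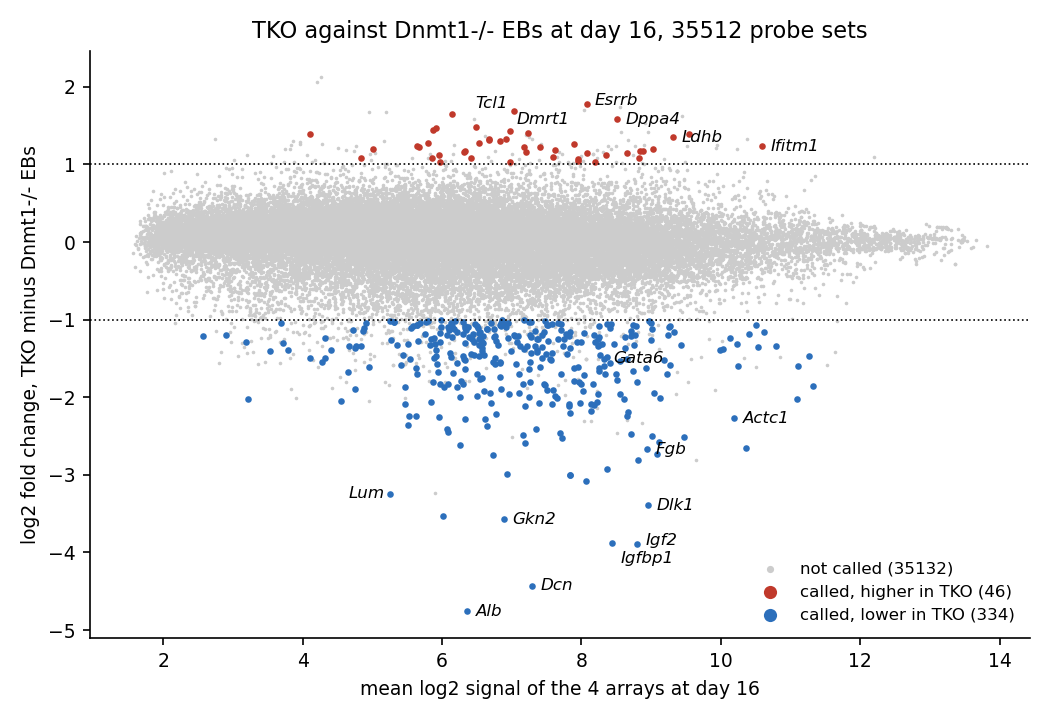
Mean log2 signal of the 4 arrays (horizontal axis) against the log2 fold change between TKO and *Dnmt1-/-* EBs at day 16 (vertical axis), 1 point for each of 35512 probe sets. The dotted lines mark 2-fold. The 334 probe sets called lower in TKO reach -4.76. The largest rise of any probe set, called or not, is 2.12, and called genes with their own symbol reach 1.78.

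**Figure D2:**
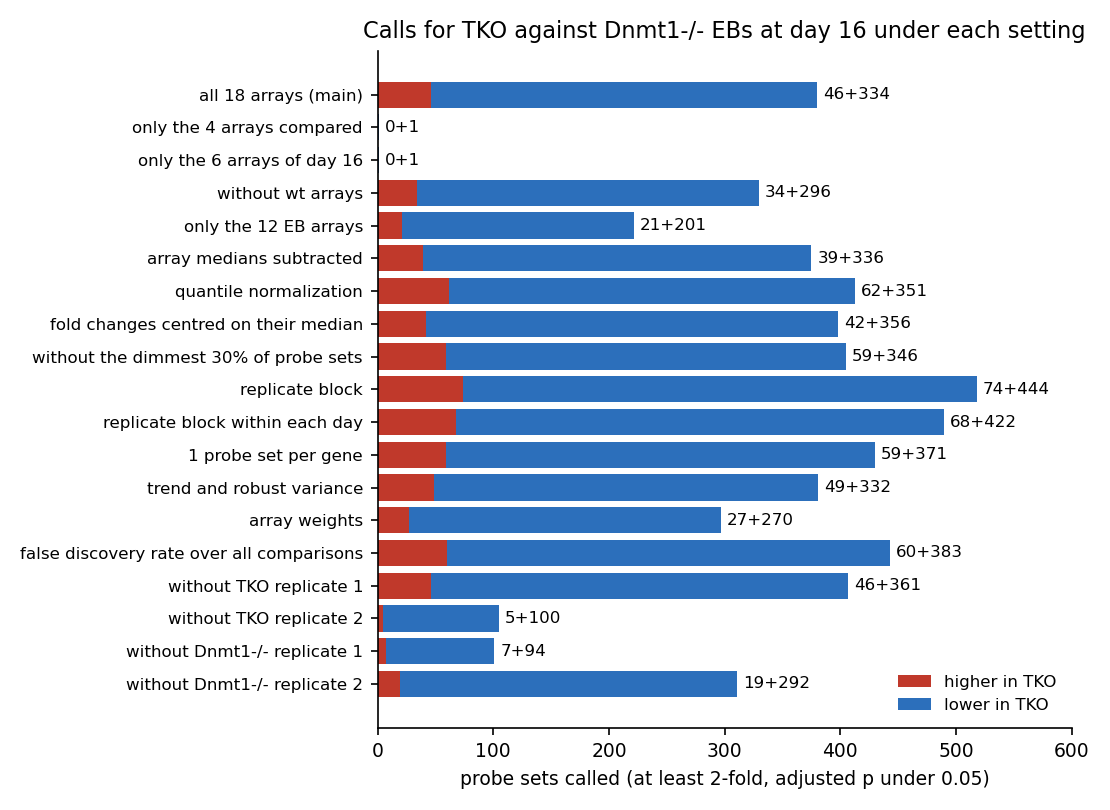
Number of probe sets called for TKO against *Dnmt1-/-* EBs at day 16 (horizontal axis) in the fit of all 18 arrays and under each alternative (rows), split into higher and lower in TKO. The count is 380 with all arrays, 1 with the 4 compared arrays alone and 101 to 407 when 1 of them is left out.

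The genes mutated in the lines were read first. *Dnmt3a* had 6.45 and 6.67 in TKO EBs, 7.96 and 8.03 in *Dnmt1-/-* EBs and 8.53 and 8.95 in wt EBs. Both TKO arrays lay below both *Dnmt1-/-* arrays, with a log2 fold change of -1.43 (SE 0.22, adjusted p = 0.00751). *Dnmt3b* had 7.52 and 7.71 in TKO EBs, 8.85 and 8.87 in *Dnmt1-/-* EBs and 7.16 and 7.41 in wt EBs, and the log2 fold change of -1.25 (SE 0.24, adjusted p = 0.0229) again placed TKO below *Dnmt1-/-*. *Dnmt1*, disrupted on both sides, had 8.40 and 8.43 in TKO EBs, 8.56 and 8.86 in *Dnmt1-/-* EBs and 9.16 and 9.20 in wt EBs, a log2 fold change of -0.29 (SE 0.16, adjusted p = 0.459) that missed the threshold. All 3 probe sets still gave signal in the lines that lack the enzymes. The sources used here do not say whether they read the deleted part of a gene, so the signal does not show the loss of the protein. Nor did it follow the genotypes throughout, as both wt arrays lay below both TKO arrays for *Dnmt3b*. The call for *Dnmt3b* was lost with any of the 4 arrays left out, and that for *Dnmt3a* without *Dnmt1-/-* replicate 1 and without TKO replicate 2. The log2 fold change of *Dnmt3b* then stayed between -1.34 and -1.15. *Dnmt3l*, an inactive partner that stimulates Dnmt3 enzymes, had 10.23 and 10.29 in TKO EBs, 8.89 and 8.38 in *Dnmt1-/-* EBs and 6.12 and 5.46 in wt EBs, a log2 fold change of 1.63 (SE 0.38, adjusted p = 0.0541).

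The gene lists used from here on were chosen with earlier results of these data known, so their shares are descriptions and not tests. Of the 34 measured core and naive pluripotency genes, 6 were called higher and none lower, beside 0.166% of all genes called higher. Their median log2 fold change was 1.01 against 0.06 over all genes. In all, 30 of the 34 lay above 0. The called members were *Esrrb*, *Tcl1*, *Dppa4*, *Dppa3*, *Prdm14* and *Klf2*, and each of these 6 calls was lost in every fit with an array left out. *Esrrb*, an orphan nuclear receptor of the naive network, had 9.08 and 8.85 in TKO EBs, 7.19 and 7.19 in *Dnmt1-/-* EBs and 5.94 and 5.47 in wt EBs. The 2 TKO arrays were well above both *Dnmt1-/-* arrays, which in turn were above wt, and the log2 fold change of 1.78 (SE 0.38, adjusted p = 0.0363) was the largest among called genes that were higher. *Dppa4*, a chromatin factor of pluripotent and germ cells, had 9.35 and 9.26 in TKO EBs, 7.99 and 7.47 in *Dnmt1-/-* EBs and 6.09 and 6.14 in wt EBs, again in the order TKO, *Dnmt1-/-*, wt, with a log2 fold change of 1.58 (SE 0.33, adjusted p = 0.032). *Tcl1*, a co-activator of Akt, had 8.03 and 7.73 in TKO EBs, 6.32 and 6.06 in *Dnmt1-/-* EBs and 5.47 and 5.22 in wt EBs and a log2 fold change of 1.69 (SE 0.38, adjusted p = 0.0483). For *Dppa3*, which guards methylation in the egg, signals were 7.58 and 7.10 in TKO EBs, 6.10 and 5.95 in *Dnmt1-/-* EBs and 5.57 and 5.28 in wt EBs, and the log2 fold change of 1.32 (SE 0.25, adjusted p = 0.0213) left no overlap between genotypes. *Prdm14*, a repressor that holds Dnmt3 genes low in naive ESCs, had a log2 fold change of 1.27 (SE 0.27, adjusted p = 0.0356), and *Klf2*, a Kruppel-like factor of the naive network, a log2 fold change of 1.08 (SE 0.23, adjusted p = 0.0362).

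The factors at the centre of the network showed changes of like size that missed the adjusted threshold. *Pou5f1*, which encodes Oct4, had 10.52 and 10.55 in TKO EBs, 9.53 and 9.11 in *Dnmt1-/-* EBs and 7.44 and 6.84 in wt EBs. Both TKO arrays were above the *Dnmt1-/-* arrays, with a log2 fold change of 1.22 (SE 0.41, adjusted p = 0.191). *Nanog* had 10.77 and 10.89 in TKO EBs, 9.73 and 9.53 in *Dnmt1-/-* EBs and 8.05 and 7.75 in wt EBs and a log2 fold change of 1.20 (SE 0.47, adjusted p = 0.268). *Sox2* had a log2 fold change of 1.25 (SE 0.33, adjusted p = 0.0795) and *Zfp42*, also called Rex1, a log2 fold change of 1.42 (SE 0.38, adjusted p = 0.088). The SE of these genes, 0.33 to 0.47, was above the median SE of 0.20. The mean level of the 5 pluripotency markers *Pou5f1*, *Nanog*, *Sox2*, *Utf1* and *Zfp42* was 10.49 and 10.57 on the TKO arrays, 9.32 and 9.17 on the *Dnmt1-/-* arrays and 7.65 and 7.25 on the wt arrays of day 16. It lay between 10.99 and 11.25 in the ESCs of all 3 lines. With any 1 of the 4 arrays left out, the log2 fold changes of the 6 called pluripotency genes remained at 0.99 or more. With the 12 EB arrays alone, or without the wt arrays, 1 of the 34 genes was called, and 12 were called when 1 probe set was tested for each gene.

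Of the other genes called higher, *Tet1*, which oxidizes methylated cytosine and so acts opposite to the Dnmt enzymes, had 9.28 and 9.65 in TKO EBs, 8.13 and 8.45 in *Dnmt1-/-* EBs and 7.70 and 7.20 in wt EBs, and its TKO arrays exceeded the *Dnmt1-/-* arrays with a log2 fold change of 1.18 (SE 0.23, adjusted p = 0.0248). The 2 other probe sets of *Tet1* had log2 fold changes of 1.14 and 1.18. The call for *Tet1* was lost without either *Dnmt1-/-* array, without TKO replicate 2 and in the fit of the 12 EB arrays. With an array left out, its log2 fold change lay between 0.99 and 1.36. *Dmrt1*, a sex-determining transcription factor of the germ line, had 7.59 and 7.78 in TKO EBs, 6.30 and 6.22 in *Dnmt1-/-* EBs and 5.85 and 5.67 in wt EBs. Its log2 fold change of 1.43 (SE 0.18, adjusted p = 0.00284) was kept whichever array was left out, the only rise for which this was so. *Ifitm1*, an interferon-induced transmembrane protein also made by primordial germ cells, had 11.21 and 11.20 in TKO EBs, 10.19 and 9.76 in *Dnmt1-/-* EBs and 10.06 and 9.93 in wt EBs, with *Dnmt1-/-* and wt arrays overlapping and a log2 fold change of 1.23 (SE 0.21, adjusted p = 0.0116). *Ldhb*, a subunit of lactate dehydrogenase, had 10.16 and 9.82 in TKO EBs, 8.94 and 8.34 in *Dnmt1-/-* EBs and 8.58 and 8.18 in wt EBs and a log2 fold change of 1.35 (SE 0.25, adjusted p = 0.0199). *Fut9*, the fucosyltransferase that makes the SSEA-1 antigen of mouse ESCs, had 6.94 and 6.35 in TKO EBs, 5.14 and 5.20 in *Dnmt1-/-* EBs and 4.30 and 4.60 in wt EBs and a log2 fold change of 1.47 (SE 0.23, adjusted p = 0.0073). The rest of the 15 largest rises were *Dnajc6*, *Crygd*, *Slc17a9*, *Zfp459*, *Dcaf12l1* and *Nexmif*, with log2 fold changes between 1.23 (*Nexmif*) and 1.41 (*Dnajc6*). The germ line list gave no call among 45 measured genes, with 13 at an unadjusted p under 0.05 in the higher direction and a median of 0.17. Its 5 markers averaged 7.45 and 7.10 on the TKO arrays, 6.89 and 6.63 on the *Dnmt1-/-* arrays and 4.41 and 4.31 on the wt arrays.

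**Figure D3:**
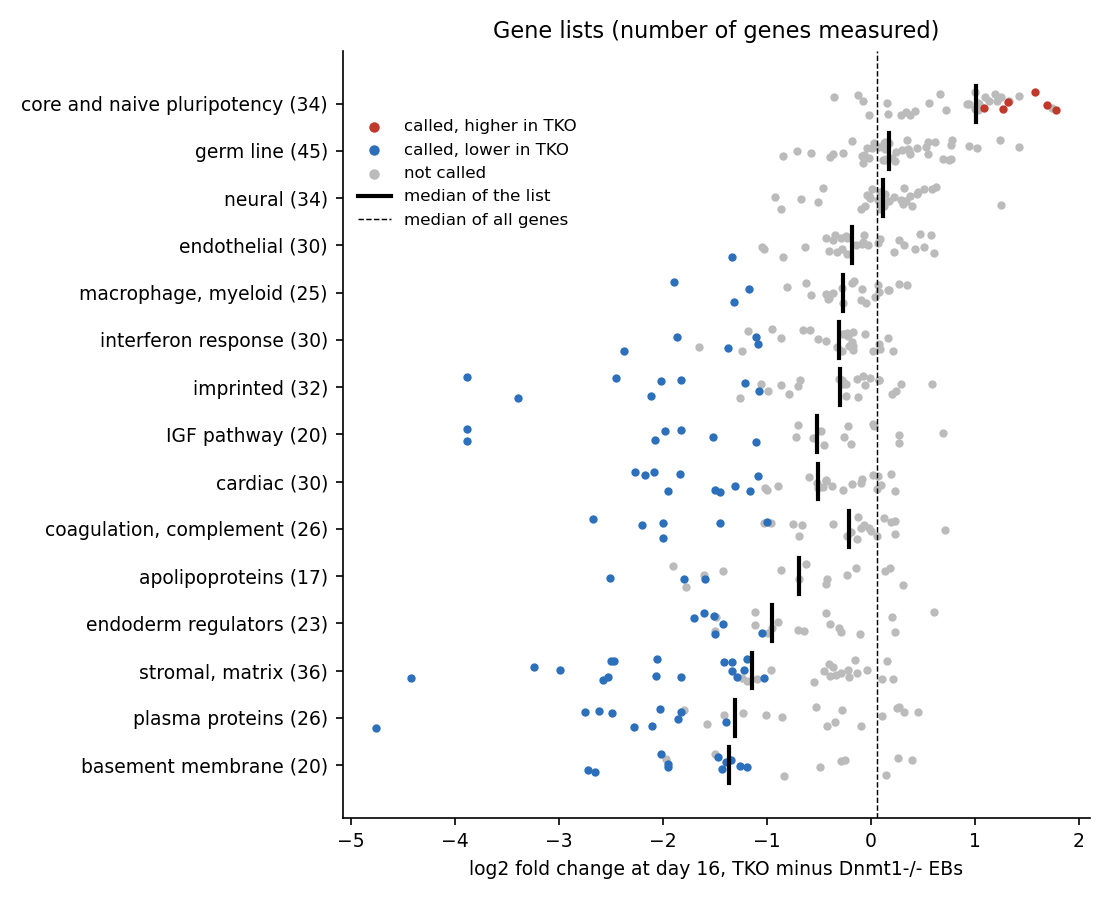
Log2 fold change of TKO against *Dnmt1-/-* EBs at day 16 (horizontal axis) for the genes of 15 lists (rows, with the number measured), 1 point for each gene. Pluripotency genes have a median of 1.01, whereas stromal, plasma protein and basement membrane genes have medians of -1.14, -1.31 and -1.37 (thick bars), beside 0.06 for all genes (dashed line).

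Genes for secreted plasma proteins, which the visceral endoderm of the early embryo and later the liver make, were called lower in TKO EBs in 10 of 26 measured cases and higher in none, beside 1.46% of all genes called lower, with a median log2 fold change of -1.31. *Alb*, serum albumin, had the largest change of all genes, with 3.96 and 4.01 in TKO EBs, 8.05 and 9.44 in *Dnmt1-/-* EBs and 11.33 and 12.19 in wt EBs. On the TKO arrays it stood at the level of ESCs (4.00 on average in TKO and 3.91 in *Dnmt1-/-* ESCs), while both *Dnmt1-/-* arrays had risen far above it and wt still further, and the log2 fold change of -4.76 (SE 0.35, adjusted p = 6.61e-05) held with any array left out. *Ambp*, which encodes a precursor of the protease inhibitor bikunin, had 5.43 and 5.27 in TKO EBs, 8.37 and 7.83 in *Dnmt1-/-* EBs and 9.47 and 10.23 in wt EBs and a log2 fold change of -2.75 (SE 0.22, adjusted p = 7.66e-05). *Ugt2b34*, a liver enzyme that couples glucuronic acid to its substrates and that belongs to no list, had 4.51 and 3.98 in TKO EBs, 7.63 and 7.92 in *Dnmt1-/-* EBs and 9.89 and 10.70 in wt EBs and a log2 fold change of -3.53 (SE 0.28, adjusted p = 7.66e-05). *Kng1*, kininogen, had a log2 fold change of -2.61 (SE 0.33, adjusted p = 0.00223), *Hpx*, the haem carrier hemopexin, a log2 fold change of -2.49 (SE 0.29, adjusted p = 0.00145), *Vtn*, vitronectin, a log2 fold change of -2.28 (SE 0.32, adjusted p = 0.0038), and *Serpinf2*, the plasmin inhibitor, a log2 fold change of -2.10 (SE 0.31, adjusted p = 0.00563). Between 6 and 9 of the 10 calls stood when 1 array was left out, 6 of them without *Dnmt1-/-* replicate 1 or without TKO replicate 2. Not every visceral endoderm gene differed by as much. *Afp*, alpha-fetoprotein, had 10.95 and 10.92 in TKO EBs, 12.63 and 12.06 in *Dnmt1-/-* EBs and 12.72 and 12.48 in wt EBs, and the log2 fold change of -1.41 (SE 0.35, adjusted p = 0.0666) missed the threshold. *Ttr*, transthyretin, had 11.20 and 10.28 in TKO EBs, 12.46 and 12.18 in *Dnmt1-/-* EBs and 12.27 and 12.26 in wt EBs and a log2 fold change of -1.58 (SE 0.62, adjusted p = 0.269). The TKO arrays of both genes were far above the ESC arrays, so the marker list gave high means on every EB array, 9.37 and 8.90 in TKO, 11.37 and 11.29 in *Dnmt1-/-* and 11.64 and 11.54 in wt, against 4.97 to 5.09 in ESCs.

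Lipoprotein genes gave 3 calls among 17 measured, all lower, beside 1.46% of all genes called lower, with a median of -0.70. *Apoa2*, an apolipoprotein of high-density lipoprotein, had 8.72 and 7.71 in TKO EBs, 11.27 and 10.19 in *Dnmt1-/-* EBs and 9.88 and 9.57 in wt EBs, and *Dnmt1-/-* arrays lay above both TKO and wt, with a log2 fold change of -2.51 (SE 0.33, adjusted p = 0.00318). *Mttp*, which loads lipid onto apolipoprotein B, had 8.29 and 7.51 in TKO EBs, 9.81 and 9.59 in *Dnmt1-/-* EBs and 8.24 and 7.97 in wt EBs and a log2 fold change of -1.80 (SE 0.27, adjusted p = 0.00589), with wt and TKO arrays overlapping. *Apoa1* was lower as well (log2 fold change of -1.59 (SE 0.31, adjusted p = 0.0222)), whereas *Apob* had a log2 fold change of -1.61 (SE 0.40, adjusted p = 0.0697). Of 26 coagulation and complement genes 6 were lower, with a median of -0.21. *Fgb*, the beta chain of fibrinogen, had 7.72 and 7.50 in TKO EBs, 10.41 and 10.15 in *Dnmt1-/-* EBs and 9.95 and 10.47 in wt EBs. The pairs of arrays were tight and the log2 fold change of -2.67 (SE 0.18, adjusted p = 3.22e-05) was called in each fit with an array left out. Prothrombin (*F2*) had 6.99 and 6.49 in TKO EBs, 9.37 and 8.50 in *Dnmt1-/-* EBs and 7.95 and 7.94 in wt EBs and a log2 fold change of -2.20 (SE 0.24, adjusted p = 0.00108), and *Cfb*, complement factor B, 6.19 and 6.29 in TKO EBs, 8.45 and 8.04 in *Dnmt1-/-* EBs and 8.14 and 8.62 in wt EBs and a log2 fold change of -2.001 (SE 0.21, adjusted p = 0.00079). *Fgg*, *Cfi* and *Proc* made up the 6, with log2 fold changes of -2.002, -1.45 and -1.01. With 1 array left out, 1 to 3 of the 3 lipoprotein calls and 4 to 6 of the 6 coagulation calls stood. Without *Dnmt1-/-* replicate 1 or TKO replicate 2, only the call for *Apoa2* remained among the lipoprotein genes.

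The promoters of a few of these genes are shown because liver-type genes are known to be bound by HNF1, whose half-site is GTTAAT (searched on both strands, so also as ATTAAC). They are RefSeq windows of the mouse assembly GRCm38.p6, from 250 bases before to 50 after the start of the gene, read in the direction of transcription, with the half-site in capitals. *Alb* lies at chr5:90460620-90460919 (forward strand), *Fgb* at chr3:83049814-83050113 (reverse strand) and *Igfbp1*, described below with the growth factor genes, at chr11:7197537-7197836 (forward strand).
Alb: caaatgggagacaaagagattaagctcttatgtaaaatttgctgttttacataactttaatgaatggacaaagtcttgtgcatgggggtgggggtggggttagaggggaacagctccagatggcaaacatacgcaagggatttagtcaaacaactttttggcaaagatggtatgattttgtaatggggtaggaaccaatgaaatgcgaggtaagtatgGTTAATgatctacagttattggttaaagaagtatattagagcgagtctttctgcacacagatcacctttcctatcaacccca
Fgb: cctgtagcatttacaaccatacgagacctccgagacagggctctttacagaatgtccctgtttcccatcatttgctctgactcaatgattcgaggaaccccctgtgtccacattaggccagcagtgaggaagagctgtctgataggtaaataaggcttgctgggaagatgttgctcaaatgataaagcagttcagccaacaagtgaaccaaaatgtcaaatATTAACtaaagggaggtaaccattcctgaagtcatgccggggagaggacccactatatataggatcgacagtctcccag
Igfbp1: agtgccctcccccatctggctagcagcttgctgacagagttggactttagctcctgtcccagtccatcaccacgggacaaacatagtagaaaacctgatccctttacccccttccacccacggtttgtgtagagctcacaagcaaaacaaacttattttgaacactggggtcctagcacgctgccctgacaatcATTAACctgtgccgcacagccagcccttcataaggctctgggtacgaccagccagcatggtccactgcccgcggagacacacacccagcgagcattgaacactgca
In these 3 windows the half-site began 32, 29 and 56 bases before the RefSeq start, which was not checked against measured starts of transcription. It was found in 7.10% of all 32851 windows and in 8.24% of the 27025 genes that have one. Of the 19 called plasma protein, apolipoprotein and coagulation genes, 13 had a window, and 4 of these held it (*Alb*, *Vtn*, *F2* and *Fgb*). Of the 69 measured genes of these lists, 55 had a window and 17 held it. With windows missing for part of the genes, these counts describe only the genes that have one. A match is a description of the letters only. Only 69.7% of the genes called higher and 73.9% of those called lower had a window, so a comparison of CpG content over all called genes was void and is not given.

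In the list of endoderm transcription factors and endocytic receptors, 6 of 23 measured genes were called lower and none higher. The share of all genes called lower was 1.46%, and the median of the list was -0.95. *Gata6*, which starts extraembryonic endoderm, had 7.77 and 7.29 in TKO EBs, 9.13 and 9.13 in *Dnmt1-/-* EBs and 9.67 and 9.76 in wt EBs. *Dnmt1-/-* stood a little below wt and TKO below both, with a log2 fold change of -1.60 (SE 0.24, adjusted p = 0.00563). Its relative *Gata4* had 8.01 and 7.79 in TKO EBs, 9.52 and 9.30 in *Dnmt1-/-* EBs and 8.43 and 8.70 in wt EBs and a log2 fold change of -1.51 (SE 0.26, adjusted p = 0.0126). *Tmprss2*, a membrane protease, had a log2 fold change of -1.70 (SE 0.25, adjusted p = 0.00541), *Vil1*, the microvillus protein villin, a log2 fold change of -1.42 (SE 0.17, adjusted p = 0.00185), and *Sox17*, an endoderm transcription factor, a log2 fold change of -1.05 (SE 0.20, adjusted p = 0.0205). Without *Dnmt1-/-* replicate 1 or without TKO replicate 2, 1 of the 6 stayed called, and 5 or all 6 stayed without the other arrays.

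Basement membrane genes, strongly made by parietal endoderm, had the lowest median of all lists, -1.37. Of the 20 measured, 11 were called lower, beside 1.46% of all genes. *Lama1*, the alpha chain of laminin-111, had 7.82 and 7.62 in TKO EBs, 10.30 and 10.60 in *Dnmt1-/-* EBs and 7.62 and 9.74 in wt EBs. The 2 TKO arrays were below both *Dnmt1-/-* arrays (log2 fold change of -2.73 (SE 0.48, adjusted p = 0.0143)), while 1 wt array was at the TKO level and the other near *Dnmt1-/-*. Its partner chains were lower with it: *Lamb1* had a log2 fold change of -1.35 (SE 0.20, adjusted p = 0.00628) and *Lamc1* a log2 fold change of -1.39 (SE 0.22, adjusted p = 0.00819). *Col4a1* had 8.26 and 7.98 in TKO EBs, 10.12 and 10.15 in *Dnmt1-/-* EBs and 8.82 and 10.03 in wt EBs, and the 2 collagen IV genes, which lie head to head, had log2 fold changes of -2.02 for *Col4a1* and -1.95 for *Col4a2*. *Srgn*, the proteoglycan serglycin, had 9.14 and 8.91 in TKO EBs, 11.62 and 11.76 in *Dnmt1-/-* EBs and 8.17 and 10.31 in wt EBs. Its *Dnmt1-/-* arrays were the highest of the 3 lines and the log2 fold change of -2.66 (SE 0.48, adjusted p = 0.0162) set TKO lower, with the wt arrays again apart. *Pth1r*, a receptor of parietal endoderm for parathyroid hormone-related protein, had 7.30 and 7.20 in TKO EBs, 9.42 and 8.997 in *Dnmt1-/-* EBs and 7.54 and 8.29 in wt EBs and a log2 fold change of -1.95 (SE 0.22, adjusted p = 0.00118). *Sparc* had a log2 fold change of -1.48 (SE 0.28, adjusted p = 0.0218). Only 2 and 1 of the 11 calls stood without *Dnmt1-/-* replicate 1 and without TKO replicate 2, against 4 without *Dnmt1-/-* replicate 2 and 9 without TKO replicate 1.

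Connective tissue genes gave the largest number of calls of any list, 17 of 36 measured. All were lower, beside 1.46% of all genes called lower, with a median of -1.14. *Dcn*, the small proteoglycan decorin, had 5.42 and 4.74 in TKO EBs, 10.02 and 8.99 in *Dnmt1-/-* EBs and 11.54 and 11.81 in wt EBs. TKO stood near the ESC level (4.92 on average in TKO ESCs), *Dnmt1-/-* between TKO and wt, and the log2 fold change of -4.43 (SE 0.30, adjusted p = 3.22e-05) was called with any array left out. *Lum*, lumican, of the same family, had 3.54 and 3.72 in TKO EBs, 7.31 and 6.44 in *Dnmt1-/-* EBs and 9.93 and 10.13 in wt EBs and a log2 fold change of -3.24 (SE 0.24, adjusted p = 6.89e-05). Collagen III (*Col3a1*) had 6.50 and 6.43 in TKO EBs, 9.31 and 8.67 in *Dnmt1-/-* EBs and 11.18 and 11.61 in wt EBs and a log2 fold change of -2.53 (SE 0.23, adjusted p = 0.000246). The 2 chains of collagen I had log2 fold changes of -2.50 (*Col1a1*) and -2.48 (*Col1a2*). *Postn*, periostin, had 6.42 and 4.47 in TKO EBs, 8.81 and 8.06 in *Dnmt1-/-* EBs and 10.40 and 10.17 in wt EBs. Its TKO arrays were far apart but both below the *Dnmt1-/-* arrays, and the call (log2 fold change of -2.99 (SE 0.48, adjusted p = 0.00874)) was lost without *Dnmt1-/-* replicate 1. *Pdgfra*, the receptor for platelet-derived growth factor that marks mesoderm and primitive endoderm, had 8.15 and 7.50 in TKO EBs, 10.40 and 10.39 in *Dnmt1-/-* EBs and 9.73 and 10.07 in wt EBs and a log2 fold change of -2.57 (SE 0.29, adjusted p = 0.00118). The 5 stromal markers averaged 6.30 and 5.86 on the TKO arrays, 9.42 and 8.81 on the *Dnmt1-/-* arrays and 11.27 and 11.75 on the wt arrays, against 5.28 to 5.69 in ESCs. Between 7 and 15 of the 17 calls stood with 1 array left out, 7 without *Dnmt1-/-* replicate 1 and 8 without TKO replicate 2.

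Mesenchymal transcription factors followed with 3 of 22 called lower, beside 1.46% of all genes, and a median of -0.33. *Tcf21*, a factor of visceral mesoderm, had 4.62 and 5.10 in TKO EBs, 7.81 and 6.74 in *Dnmt1-/-* EBs and 8.94 and 7.74 in wt EBs and a log2 fold change of -2.41 (SE 0.39, adjusted p = 0.00921). *Foxf1*, a forkhead factor of lateral mesoderm, had 6.39 and 6.48 in TKO EBs, 8.25 and 7.90 in *Dnmt1-/-* EBs and 8.82 and 8.66 in wt EBs. The arrays of each genotype were close together, and the log2 fold change of -1.64 (SE 0.19, adjusted p = 0.00135) was kept with any array left out. *Zeb2*, a repressor of epithelial genes, had a log2 fold change of -1.12 (SE 0.19, adjusted p = 0.0112). Without *Dnmt1-/-* replicate 1 or TKO replicate 2, *Foxf1* alone of the 3 stayed called.

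Heart muscle genes were lower in TKO EBs in 10 of 30 cases, beside 1.46% of all genes. None was higher, and the median was -0.51. *Actc1*, cardiac actin, had 8.27 and 9.84 in TKO EBs, 11 and 11.65 in *Dnmt1-/-* EBs and 11.95 and 12.02 in wt EBs. The 2 TKO arrays were far apart but both below the *Dnmt1-/-* arrays (log2 fold change of -2.27 (SE 0.44, adjusted p = 0.0228)), and the call was lost without TKO replicate 1 and without either *Dnmt1-/-* array. *Myl7*, the atrial myosin light chain, had 6.64 and 7.46 in TKO EBs, 8.999 and 9.46 in *Dnmt1-/-* EBs and 9.92 and 9.28 in wt EBs and a log2 fold change of -2.18 (SE 0.41, adjusted p = 0.0208), a call lost with any of the 4 arrays left out. *Myh6*, the alpha myosin heavy chain, had 5.37 and 6.07 in TKO EBs, 7.21 and 8.13 in *Dnmt1-/-* EBs and 8.31 and 8.78 in wt EBs and a log2 fold change of -1.95 (SE 0.28, adjusted p = 0.00522). *Pln*, phospholamban, which restrains the calcium pump, had 4.32 and 4.55 in TKO EBs, 6.10 and 6.94 in *Dnmt1-/-* EBs and 7.70 and 7.53 in wt EBs and a log2 fold change of -2.09 (SE 0.26, adjusted p = 0.00243). *Mybpc3* (log2 fold change of -1.84 (SE 0.19, adjusted p = 0.000823)) and *Tnnt2* (log2 fold change of -1.50 (SE 0.17, adjusted p = 0.00135)), both of the sarcomere, were called in every fit with an array left out. Replicate 2 had the higher signal of the TKO pair for each of these 6 genes, and of the *Dnmt1-/-* pair for all but *Mybpc3*. In all, 6 or 7 of the 10 calls stood with an array left out. The 5 cardiac markers averaged 6.76 and 7.53 on the TKO arrays, 8.44 and 8.96 on the *Dnmt1-/-* arrays and 9.34 on both wt arrays, against 6.28 to 6.52 in ESCs.

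The windows of *Actc1* (chr2:114052826-114053125, reverse strand) and *Myl7* (chr11:5898733-5899032, reverse strand) are shown because serum response factor acts on muscle genes through the CArG box, here in capitals.
Actc1: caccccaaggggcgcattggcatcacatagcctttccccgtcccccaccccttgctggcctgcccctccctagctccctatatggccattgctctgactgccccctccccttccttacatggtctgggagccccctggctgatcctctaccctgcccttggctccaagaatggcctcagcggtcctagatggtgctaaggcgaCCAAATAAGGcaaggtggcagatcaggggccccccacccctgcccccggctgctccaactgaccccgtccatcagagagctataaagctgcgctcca
Myl7: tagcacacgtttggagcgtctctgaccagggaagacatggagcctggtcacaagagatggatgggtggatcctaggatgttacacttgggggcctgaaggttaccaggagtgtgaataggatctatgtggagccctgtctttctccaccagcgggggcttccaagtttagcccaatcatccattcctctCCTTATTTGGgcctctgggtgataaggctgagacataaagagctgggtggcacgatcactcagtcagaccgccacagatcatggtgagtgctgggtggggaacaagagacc
The box began 47 and 61 bases before the RefSeq start. It was present in 1.63% of all windows of this length and in 1.81% of genes with a window. Of the 10 called cardiac genes, which all had a window, 3 held it (*Myl3*, *Myl7* and *Actc1*), and 5 of the 27 measured cardiac genes with a window did.

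Imprinted genes, which are expressed mainly from 1 parental copy, included several of the largest falls. Of 32 measured, 8 were lower, beside 1.46% of all genes, and none higher, with a median of -0.30. *Igf2*, a growth factor made from the paternal copy, had 6.99 and 6.71 in TKO EBs, 10.77 and 10.70 in *Dnmt1-/-* EBs and 11.84 and 12.14 in wt EBs. The arrays of each genotype were close together and those of TKO near the level of TKO ESCs (6.67 on average). The log2 fold change of -3.89 (SE 0.31, adjusted p = 7.73e-05) was the only call of the fit of the 4 arrays alone (adjusted p = 0.0494 in that limma fit). *Dlk1*, a Notch ligand relative, also paternally expressed, had 7.55 and 6.98 in TKO EBs, 10.90 and 10.41 in *Dnmt1-/-* EBs and 11.72 and 11.80 in wt EBs and a log2 fold change of -3.39 (SE 0.20, adjusted p = 2.88e-05). *Zim1*, a zinc finger gene, had 5.08 and 4.63 in TKO EBs, 7.57 and 7.04 in *Dnmt1-/-* EBs and 8.31 and 9.28 in wt EBs and a log2 fold change of -2.45 (SE 0.30, adjusted p = 0.00192). *Nnat*, *Plagl1* and *Grb10* had log2 fold changes of -2.11, -2.02 and -1.83, and *Ddc* and *Ndn* -1.22 and -1.08. Other members missed the threshold. *Igf2r*, the maternally expressed receptor that clears Igf2, had 8.81 and 8.87 in TKO EBs, 9.48 and 9.61 in *Dnmt1-/-* EBs and 9.61 and 10.35 in wt EBs and a log2 fold change of -0.70 (SE 0.19, adjusted p = 0.0984). Between 4 and 8 of the 8 calls stood with an array left out, 4 without *Dnmt1-/-* replicate 1 or TKO replicate 2.

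The insulin-like growth factor (IGF) pathway list shares *Igf2*, *Igf2r* and *Grb10* with the imprinted list. Of its 20 measured genes 7 were lower, beside 1.46% of all genes, with a median of -0.52. *Igfbp1*, a binding protein that the liver secretes, had 6.54 and 6.45 in TKO EBs, 10.95 and 9.81 in *Dnmt1-/-* EBs and 10.53 and 10.31 in wt EBs. *Dnmt1-/-* and wt arrays overlapped, TKO lay far below, and the log2 fold change of -3.88 (SE 0.26, adjusted p = 3.22e-05) was called with any array left out. *Igfbp5*, *Igfbp7* and *Igfbp4* had log2 fold changes of -2.08, -1.98 and -1.52, and *Insr*, the insulin receptor, -1.10. With an array left out, 3 to 7 of the 7 stood, 3 without TKO replicate 2 and 4 without *Dnmt1-/-* replicate 1.

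**Figure D4:**
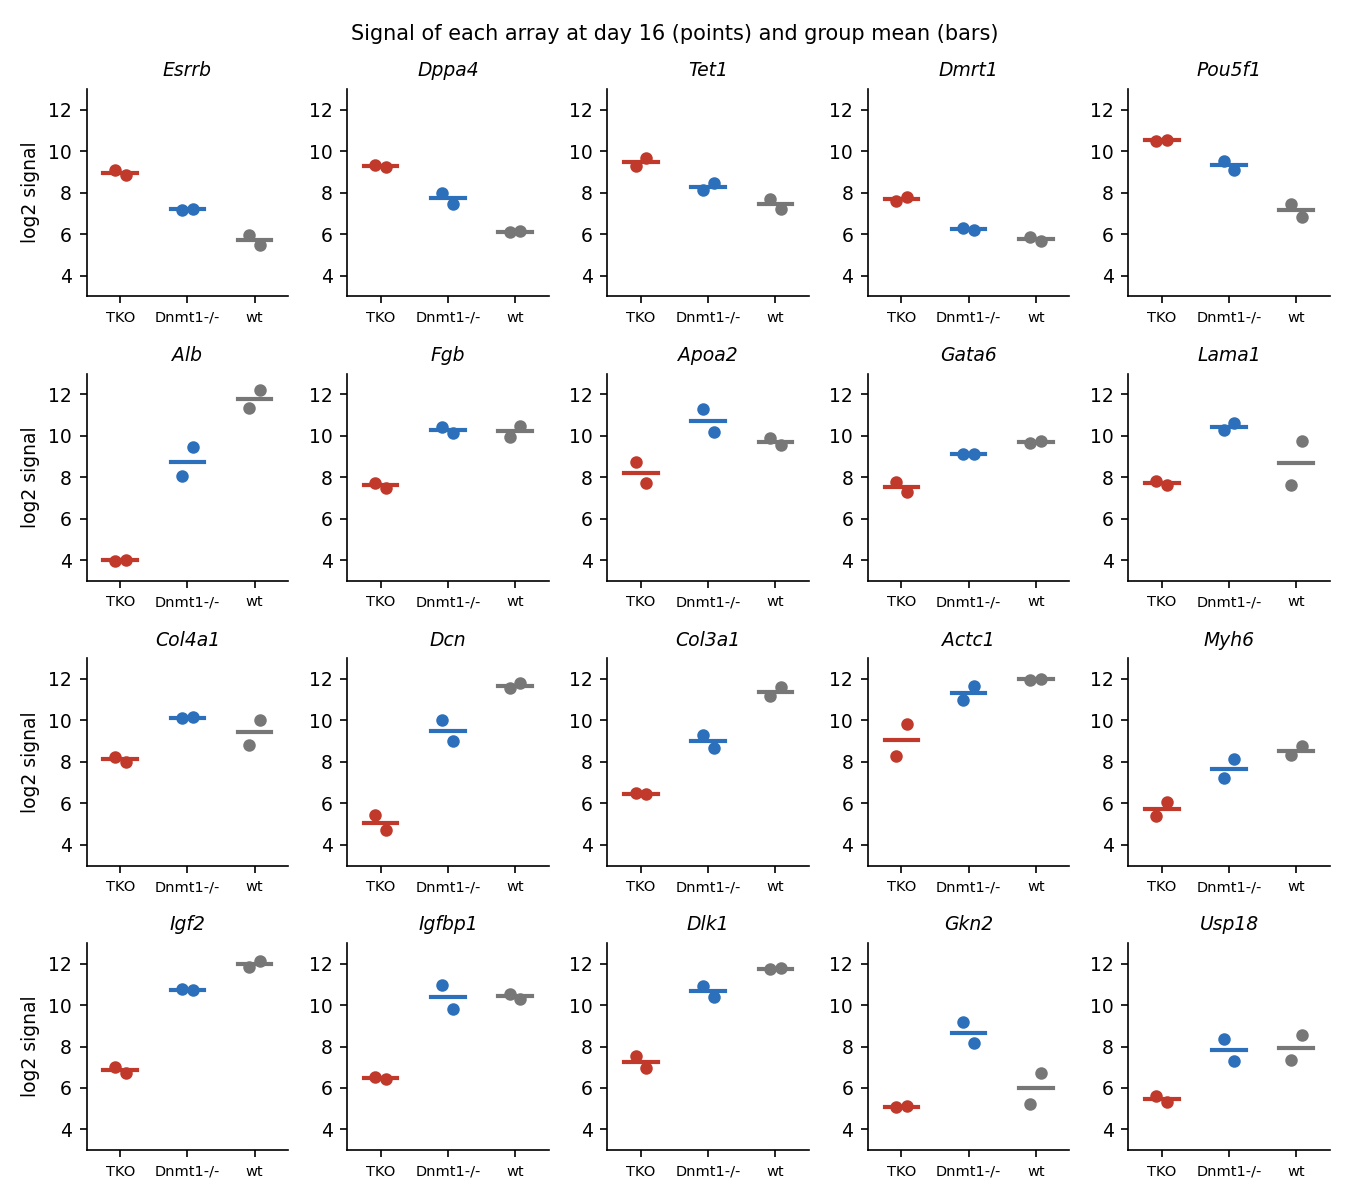
Log2 signal (vertical axis) of each array of day 16 for 20 genes, with points for arrays and bars for group means of TKO, *Dnmt1-/-* and wt EBs. *Alb*, *Dcn* and *Igf2* are lowest in TKO and highest in wt, *Fgb* and *Igfbp1* overlap between *Dnmt1-/-* and wt, and *Gkn2* is highest in *Dnmt1-/-* EBs.

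Some genes known from the digestive tract were called lower in TKO EBs. They form no list here, so no share of such genes is given, and most were picked for their values. *Gkn2*, a gastrokine of the stomach lining, had 5.08 and 5.12 in TKO EBs, 9.17 and 8.18 in *Dnmt1-/-* EBs and 5.21 and 6.75 in wt EBs. TKO was close to the lower wt array and the log2 fold change of -3.58 (SE 0.42, adjusted p = 0.00149) was called with any array left out. The genes *Gkn1*, *Pgc*, *Clps*, *Tff3* and *Pyy*, which encode another gastrokine, a pepsinogen, a pancreatic cofactor of lipase, a trefoil peptide and a gut hormone, were added after their values were seen. *Gkn1* had 5.83 and 5.96 in TKO EBs, 9.10 and 7.88 in *Dnmt1-/-* EBs and 5.67 and 6.45 in wt EBs and a log2 fold change of -2.59 (SE 0.33, adjusted p = 0.0025). *Pgc* had 7.46 and 6.67 in TKO EBs, 9.15 and 8.58 in *Dnmt1-/-* EBs and 4.99 and 5.08 in wt EBs and a log2 fold change of -1.80 (SE 0.26, adjusted p = 0.00522), so that TKO lay between *Dnmt1-/-* and wt. *Clps*, *Tff3* and *Pyy* had log2 fold changes of -1.70, -2.08 and -1.48. *Pga5*, a pepsinogen, had 6.76 and 7.05 in TKO EBs, 9.99 and 9.68 in *Dnmt1-/-* EBs and 8.33 and 9.99 in wt EBs and a log2 fold change of -2.93 (SE 0.37, adjusted p = 0.0025), with 1 wt array between the mutants and the other at the *Dnmt1-/-* level. *S100g*, a calcium-binding protein of gut and yolk sac, had 8.13 and 6.68 in TKO EBs, 10.61 and 9.82 in *Dnmt1-/-* EBs and 9.30 and 7.56 in wt EBs and a log2 fold change of -2.81 (SE 0.54, adjusted p = 0.022). Its call was lost without *Dnmt1-/-* replicate 1 and without TKO replicate 2, and that of *Pgc* likewise, while those of *Clps* and *Tff3* were lost without *Dnmt1-/-* replicate 1. *Xist*, the RNA that silences an X chromosome and that was also picked after its values were seen, had 8.22 and 7.36 in TKO EBs, 9.27 and 9.38 in *Dnmt1-/-* EBs and 3.89 and 4.05 in wt EBs. It was above wt in both mutants and lower in TKO than in *Dnmt1-/-* EBs (log2 fold change of -1.54 (SE 0.24, adjusted p = 0.00698)), a call lost without *Dnmt1-/-* replicate 1 and without TKO replicate 2.

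Interferon response genes gave 5 calls among 30, all lower, beside 1.46% of all genes called lower, with a median of -0.31. *Usp18*, which removes the ISG15 tag, had 5.61 and 5.30 in TKO EBs, 8.34 and 7.32 in *Dnmt1-/-* EBs and 7.35 and 8.55 in wt EBs and a log2 fold change of -2.37 (SE 0.42, adjusted p = 0.0155). *B2m*, the light chain of class I major histocompatibility molecules, had 9.71 and 8.98 in TKO EBs, 10.73 and 10.71 in *Dnmt1-/-* EBs and 10.64 and 11.40 in wt EBs and a log2 fold change of -1.37 (SE 0.28, adjusted p = 0.0313). *Ifit1*, *Ifit2* and *Irf7* had log2 fold changes of -1.86, -1.11 and -1.08. None of the 5 was called without *Dnmt1-/-* replicate 1 or without TKO replicate 2, and none in the fit of the 12 EB arrays. Of 25 macrophage genes 3 were lower, of which 0 to 3 stood with an array left out. *Lyz2*, lysozyme, had 3.66 and 3.95 in TKO EBs, 6.08 and 5.31 in *Dnmt1-/-* EBs and 9.22 and 8.68 in wt EBs and a log2 fold change of -1.90 (SE 0.26, adjusted p = 0.00389), while *Lcp1* and *Pf4* had log2 fold changes of -1.31 and -1.17. The 5 macrophage markers averaged 5.74 and 5.82 on the TKO arrays, 6.15 and 6.07 on the *Dnmt1-/-* arrays and 7.22 and 7.65 on the wt arrays, against 5.24 to 5.60 in ESCs, and none of them was called. Their part in the lower interferon genes was not tested.

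Single calls or pairs of calls fell in other lists. Over all genes 1.46% were called lower, so 1 or 2 calls say little about a list as a whole. *Flt1*, a receptor for vascular endothelial growth factor, was the only call of 30 endothelial genes (log2 fold change of -1.34 (SE 0.26, adjusted p = 0.0225)). *Ccnd2*, cyclin D2, was the only one of 36 cell cycle genes (log2 fold change of -1.58 (SE 0.24, adjusted p = 0.00727)). *Tgfbr2* and *Tgfbr3* were the 2 calls of 41 genes of TGF-beta, Nodal and BMP signalling, with log2 fold changes of -1.03 and -1.44. *Tcf7l2* and *Dkk3* were those of 40 Wnt genes, with -1.36 and -1.05. *Scd2* and *Insig1* were those of 28 genes of fatty acid and sterol synthesis, with -1.16 and -1.07, and *Epas1* that of 26 genes of glycolysis and hypoxia, with -1.61. Of 8 Y-linked genes, *Usp9y* was lower (log2 fold change of -1.03 (SE 0.23, adjusted p = 0.0418)). Most of these calls did not stand when an array was left out. Those for *Dkk3*, *Insig1*, *Epas1* and *Usp9y* were lost with any of the 4 arrays left out, the last 3 also without the wt arrays and with the 12 EB arrays. With the EB arrays, *Dkk3* and *Tgfbr3* were lost as well. *Scd2* was called in 1 of the 4 fits with an array left out, that without *Dnmt1-/-* replicate 1, and was lost without the wt arrays. *Flt1* and *Tgfbr3* were lost without *Dnmt1-/-* replicate 1 and without TKO replicate 2, *Tgfbr2* without replicate 1 of either genotype, and *Ccnd2* without replicate 2 of either. *Tcf7l2* was called in all 4 fits. No call was made in 15 of the 36 lists, among them germ line, epiblast, primitive streak, smooth muscle, erythroid, trophoblast, neural, epithelial, Hox, Polycomb and 2-cell-like genes. A missed threshold does not show that these genes were at the same level. Of the epiblast genes, *Fgf5*, a growth factor, had a log2 fold change of 0.93 (SE 0.45, adjusted p = 0.388) and *Otx2*, a homeobox factor, a log2 fold change of 0.58 (SE 0.39, adjusted p = 0.543).

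At day 4, on arrays that the calls of day 16 did not use except for the spread, 163 genes were higher (0.818%) and 86 lower (0.431%) in TKO than in *Dnmt1-/-* EBs. Of these, 12 were among the genes higher at day 16, that is 36.4% of the 33 and 7.36% of the 163, and 22 were among the genes lower at day 16, 7.56% of the 291 and 25.6% of the 86. No gene was called in opposite directions. The shared rises included *Esrrb*, *Dppa4*, *Tet1*, *Klf2*, *Fut9*, *Dnajc6* and *Nexmif*. At day 4 *Esrrb* had 7.76 and 8.92 in TKO EBs, 6.71 and 5.52 in *Dnmt1-/-* EBs and 5.23 and 5.34 in wt EBs, with the TKO arrays above the others and a log2 fold change of 2.23 (SE 0.38, adjusted p = 0.0153). The median of the pluripotency list was 1.15 at day 4, with 11 genes called higher and 1 lower, and 0.03 in ESCs.

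Of the 22 shared falls, *Foxf1* had 6.13 and 6.42 in TKO EBs, 9.07 and 9.61 in *Dnmt1-/-* EBs and 10.09 and 10.18 in wt EBs at day 4, the TKO arrays far below the others, with a log2 fold change of -3.06 (SE 0.19, adjusted p = 3.85e-05). *Pdgfra* had 6.92 and 7.45 in TKO EBs, 9.40 and 9.91 in *Dnmt1-/-* EBs and 9.24 and 9.76 in wt EBs and a log2 fold change of -2.47 (SE 0.29, adjusted p = 0.00283). *Gata6*, *Gata4*, *Tmprss2*, *Igf2*, *Myl7*, *Zeb2*, *Ccnd2* and *Dnmt3a* were called lower at both days as well. For *Igf2* the signals at day 4 were 6.09 and 6.37 in TKO EBs, 7.35 and 8.68 in *Dnmt1-/-* EBs and 10.81 and 10.64 in wt EBs, with the *Dnmt1-/-* arrays between TKO and wt and a log2 fold change of -1.79 (SE 0.31, adjusted p = 0.0174). The plasma protein, basement membrane and stromal lists had medians of 0.05, 0.10 and -0.14 at day 4, with 0, 0 and 2 genes called lower. *Alb* had 3.95 and 3.91 in TKO EBs, 3.67 and 3.89 in *Dnmt1-/-* EBs and 3.82 and 4.03 in wt EBs at day 4, at the ESC level in all 3 lines, with a log2 fold change of 0.15 (SE 0.35, adjusted p = 0.995). Whether a difference at day 16 was larger than that at day 4 was not tested. Over all 18 arrays 301 probe sets (0.848%), 195 higher (0.549%) and 106 lower (0.298%), were called at day 4. Leaving out 1 of its arrays gave 38 without TKO replicate 2, 62 without *Dnmt1-/-* replicate 2, 145 without TKO replicate 1 and 530 without *Dnmt1-/-* replicate 1, and the fit of its 4 arrays alone gave 0 (3781 at an unadjusted p under 0.05).

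In ESCs, 2 probe sets (0.00563%) were called, both lower, 1 of them a gene (0.00502%), *Dnmt3b*, with a log2 fold change of -1.995 (SE 0.24, adjusted p = 0.0472), and both were lost with any of the 4 ESC arrays of these lines left out. In all, 1221 probe sets had an unadjusted p under 0.05. The difference between the genotypes was tested against that in ESCs as a contrast of contrasts. This called 54 probe sets (0.152%) or 50 genes (0.251%), at a median SE of 0.29 for a probe set. From day 0 to day 16 the log2 fold change shifted upwards in 2 genes (0.01%) and downwards in 48 (0.241%). With the 8 arrays compared alone, 2 probe sets were called. Leaving out 1 of them gave 71 and 43 probe sets without *Dnmt1-/-* replicate 2 and TKO replicate 1 of day 16, 23 and 14 without *Dnmt1-/-* replicate 1 and TKO replicate 2 of day 16, and 13 to 26 without an ESC array. *Alb* changed by -4.85 between the days (adjusted p = 0.00198), *Dcn* by -4.63 (adjusted p = 0.00116), and *Igf2* by -4.07 (adjusted p = 0.00299). These 3 were called in all 8 fits with an array left out. *Zfp459* and *Dmrt1* were the 2 that shifted upwards, by 1.83 and 1.53, of which *Zfp459* was called in 2 of the 8 fits and *Dmrt1* in none. At day 0 *Dmrt1* had 7.37 and 7.39 in TKO ESCs, 7.38 and 7.59 in *Dnmt1-/-* ESCs and 7.33 and 7.31 in wt ESCs, so TKO and *Dnmt1-/-* ESCs overlapped. *Esrrb*, with 9.92 on average in TKO and 9.69 in *Dnmt1-/-* ESCs, had a difference of 1.54 that missed the threshold (adjusted p = 0.429).

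**Figure D5:**
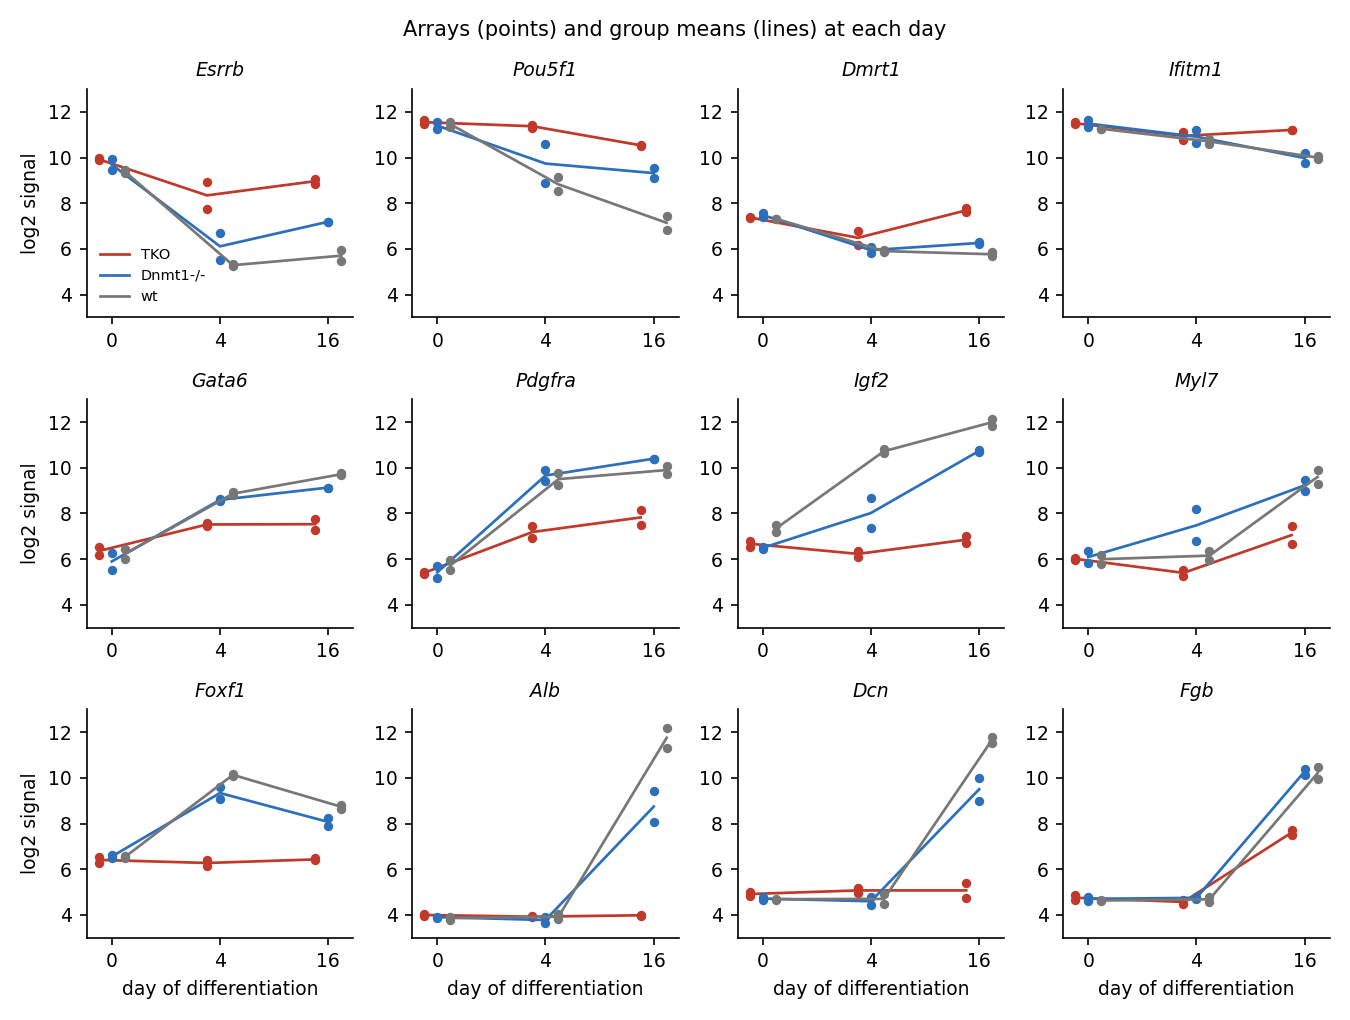
Log2 signal (vertical axis) at day 0 (ESCs), day 4 and day 16 (EBs, days spaced evenly) for 12 genes, with points for arrays and lines through the means of TKO, *Dnmt1-/-* and wt. *Foxf1*, *Pdgfra* and *Igf2* were already called lower in TKO than in *Dnmt1-/-* EBs at day 4, whereas *Alb*, *Dcn* and *Fgb* were called at day 16 only.

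Set against wt EBs of the same day, whose 2 arrays both comparisons share, TKO EBs had 2072 called probe sets (854 or 2.4% higher and 1218 or 3.43% lower, 5.83% in all) and *Dnmt1-/-* EBs 1027 (544 or 1.53% higher and 483 or 1.36% lower, 2.89% in all). Over the 291 genes lower in TKO than in *Dnmt1-/-* EBs, the median level was 6.37 in TKO, 7.91 in *Dnmt1-/-* and 8.20 in wt EBs, and 5.56 in TKO and 5.49 in *Dnmt1-/-* ESCs. Over the 33 higher genes it was 7.78 in TKO, 6.46 in *Dnmt1-/-* and 5.70 in wt EBs, and 7.58 in TKO and 7.60 in *Dnmt1-/-* ESCs. These medians describe genes that were chosen by the comparison of the mutants. The called genes lay on many chromosomes: the share of genes called lower was between 0.607% (chromosome 4) and 2.44% (chromosome 3) on the autosomes and 1.22% on the X, and 3 of the 33 higher genes were on the X, which holds 3.72% of all genes.

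The window of *Tet1* (chr10:62887275-62887574, reverse strand) is shown with its 17 CpG dinucleotides, the sites that Dnmt enzymes methylate, in capitals. The gene was called higher in TKO than in *Dnmt1-/-* EBs at both days in the fit of all 18 arrays. The call of day 16 was lost in most fits with an array left out. The paper, using RT-qPCR, found no effect on the transcript of this gene in mutant EBs. The paper also reports that methylation of its CpG island rose as wt cells differentiated. Over all 32851 windows the median was 7 and the quartiles were 3 and 20. Methylation was not measured on these arrays, and its part in the difference at *Tet1* was not tested.
Tet1: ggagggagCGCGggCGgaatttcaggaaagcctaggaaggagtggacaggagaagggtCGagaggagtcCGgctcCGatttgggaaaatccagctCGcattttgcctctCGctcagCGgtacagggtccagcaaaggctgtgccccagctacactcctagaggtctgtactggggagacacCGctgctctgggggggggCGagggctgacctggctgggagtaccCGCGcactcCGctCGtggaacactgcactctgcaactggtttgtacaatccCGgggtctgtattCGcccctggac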

How the data were processed

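RNA of ESCs and EBs was hybridized to 18 Affymetrix arrays, and the authors deposited 1 table of log2 values, normalized by RMA (version not given in the sources used here), for 35512 probe sets. RMA corrects background and equalizes the distributions of probe signals across arrays, so differences in total RNA are not kept. The deposited values still differed somewhat in spread. At day 16 the SD across probe sets was 2.31 and 2.24 for replicates 1 and 2 of TKO, and 2.35 and 2.29 for those of *Dnmt1-/-*. The platform annotation gave 1 gene symbol for 21789 probe sets, several for 1621 and none for 12102, and each of 19938 genes was read from its brightest probe set. Linear models with a mean for each of 9 groups were fitted in limma 3.58.1 (R 4.3.3), with 9 residual degrees of freedom, and p-values were adjusted by Benjamini and Hochberg over all probe sets. The fitting code was tested on simulated data. With 2 arrays a group, their number limits the precision, and p-values measure the spread between these samples only, which may be partly technical. No scan batch was given.

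Named genes were the mutated genes, the 15 largest rises and falls, up to 6 called members of each of 36 lists, and genes the study or a family brings in. Members and lists were chosen with earlier results of these data known. Alternatives changed the arrays fitted, normalization, filter, variance model and replicate block. Promoters came from RefSeq (GRCm38.p6).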

Additional observations from a re-analysis of the deposited data

Results flagged for a closer look

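The difference between TKO and *Dnmt1-/-* samples was itself different between day 16 and day 0, by a limma contrast of the 2 comparisons, in 54 probe sets. Among the genes named here, 29 were picked out by that test, each with a change of the log2 fold change (day 16 minus day 0) at an adjusted p under 0.05. Leaving out 1 of the 8 arrays gave 13 to 71 probe sets and kept 10 (without *Dnmt1-/-* replicate 1 of day 0) to 24 (without *Dnmt1-/-* replicate 2 of day 16) of the 29 genes, and 10 were called in all 8 such fits: *Alb*, *Igfbp1*, *Ugt2b34*, *Ambp*, *Fgb*, *Dcn*, *Lum*, *Igf2*, *Dlk1* and *Grb10*. *Dmrt1*, *Pga5* and *Mybpc3* were called in none. In most of the 29 the change was downwards. Most named genes were chosen for their calls at day 16, and this test uses the same arrays of day 16. The 29 genes and their direction therefore partly repeat that choice. Of the plasma protein, coagulation and liver-type genes, *Alb* had -4.85, *Igfbp1* -3.92, *Ugt2b34* -3.35, *Ambp* -2.86, *Kng1* -2.77, *Fgb* -2.72, *Hpx* -2.65, *F2* -2.59 and *Cfb* -1.99. Of the connective tissue genes, *Dcn* had -4.63, *Lum* -3.04, *Col3a1* -2.61, *Pdgfra* -2.55 and *Col1a2* -2.52. Imprinted genes were *Igf2* with -4.07, *Dlk1* with -3.40, *Zim1* with -2.46 and *Grb10* with -2.16. Genes known from the digestive tract were *Gkn2* with -3.60, *Pga5* with -3.17 and *Pyy* with -1.63. Heart muscle genes were *Pln* with -2.73, *Mybpc3* with -1.64 and *Tnnt2* with -1.62. *Lyz2* had -2.18, *Gata6* -2.06 and *Pth1r* -1.82. Only *Zfp459* and *Dmrt1* changed upwards, by 1.83 and 1.53. No group had enough arrays for a search for single outlying samples.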

How the results depend on the processing

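The count of probe sets called at day 16 (380) became 1 with the 4 compared arrays or the 6 arrays of day 16 alone, and 222 with the 12 EB arrays, a fit added after seeing the data. Leaving out 1 array gave 101 to 407. In ESCs (2 calls) the count was 0 with the compared arrays, the same day or no wt arrays (1268, 1359 and 1271 at an unadjusted p under 0.05), 1 after quantile normalization, 4 with a replicate block and 0 to 1 with an array left out, the 1 being another, higher probe set. At day 4 (301) it was 0 with the compared arrays, 1 with the same day and 38 to 530 with an array left out. TKO against wt (2072) gave 1341 with the compared arrays and 1807 to 2190 with an array left out. *Dnmt1-/-* against wt (1027) gave 422, 682 with the same day, and 793 to 1131. The difference between days (54) gave 2 with the compared arrays, 91 with a replicate block and 13 to 71 with an array left out. The cause of these shifts was not tested, beyond the fewer arrays that estimate the spread.

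The count at day 16 stayed within a factor of 1.5 under the other alternatives, with 297 (array weights) to 518 calls (replicate block). The paper describes 2 independent experiments. The sources used here do not say whether a replicate number marks one of them, and the numbers were not taken as pairs. Deviations of same-numbered arrays nevertheless all correlated positively, with r of 0.041 to 0.501 over 36 pairs of groups, 32 of them over 0.1. For TKO and *Dnmt1-/-* at day 16 r was 0.282. With the replicate block, 7256 probe sets had an unadjusted limma p under 0.05 at day 16, against 4907 in the main fit. The cause of these correlations was not tested. Of the named genes, the replicate block lost none and called *Afp*, *Utf1* and *Dnmt3l* in addition, and the block within each day called *Afp*, *Apob* and *Utf1* in addition and lost *Esrrb*, *Ifit1*, *B2m* and *Irf7*. No named gene changed sign. Of the 105 named genes called, 90 to 105 stayed called under other normalizations, variance models and blocks (101 without the dimmest 30% of probe sets, where 4 had no value), 86 without wt arrays, 67 with the EB arrays and 41 to 80 with an array of day 16 left out. Signals near background compress changes, so a fold change of a dim gene may be understated.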
